A study of Mus musculus with 14 samples.

Results

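Ttr and 8 genes that handle retinoids (Rbp4, Stra6, Lrat, Rdh19, Dhrs3, Aldh1a1, Aldh1a2 and Aldh1a3) were followed in whole kidneys of 14 female CD-1 mice. The 9 genes were taken by symbol from the 56980 genes counted, and all 9 were among the 22339 genes with more than 10 reads over the 14 libraries. They were selected on earlier results of these same libraries, and which of the values chose each gene was not recorded, so their own differences between groups are given as a description, and an adjusted p beside a member only says whether it passed the call rule over all genes. Every mouse was wild type, of an outbred stock, and 18 weeks old at dissection. The 4 term nondiabetic mice (T-ND) and the 3 preterm nondiabetic mice (PT-ND) had no treatment, and the 4 term diabetic mice (T-D) and the 3 preterm diabetic mice (PT-D) had been given Streptozotocin (STZ), a drug that destroys the insulin-making cells of the pancreas, at a low dose in early adulthood. Preterm pups were delivered by Caesarean section shortly before term and raised by foster mothers given acepromazine, whereas term pups were born naturally and stayed with their own mothers, so that these differences cannot be told apart from preterm birth itself. Some PT-D mice of the study, and no T-D mice, needed a second round of STZ, and which of the libraries these are was not given. All mice received cationic ferritin before dissection.

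Retinol, or vitamin A, travels in blood bound to retinol binding protein (Rbp4), which in turn is held by transthyretin (Ttr), a protein that also carries thyroid hormone. The liver and the choroid plexus are the best known sources of transthyretin, and in the kidney both proteins are filtered and taken back up by the proximal tubule through megalin (Lrp2) and cubilin (Cubn). Inside cells retinol is stored as an ester or oxidized to retinaldehyde and then to retinoic acid, which acts through nuclear receptors and is needed for kidney development.

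Of the 9 genes, 2 have close relatives beside them on the chromosome, and since only uniquely mapped reads were counted, the stretches that tell relatives apart decide which gene a read was given to. Aldh1a1 lies on chromosome 19 and its neighbor Aldh1a7 has 91.6% of its coding bases in common with it. The same 120 bases of coding exon 9 are shown for both, 5′ to 3′ on the strand of each gene, at chr19:20608030-20608149 (plus strand) and chr19:20685579-20685698 (minus strand) of GRCm39, with the 20 bases at which they differ in capitals:
Aldh1a1: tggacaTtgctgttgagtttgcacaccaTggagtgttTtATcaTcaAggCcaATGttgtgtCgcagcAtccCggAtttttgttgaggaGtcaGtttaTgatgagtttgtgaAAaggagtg
Aldh1a7: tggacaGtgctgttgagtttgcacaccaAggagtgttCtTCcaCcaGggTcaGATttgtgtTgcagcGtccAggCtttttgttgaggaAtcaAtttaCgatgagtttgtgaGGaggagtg
The longest run of identical coding bases of this pair was 100 bases.

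Rdh19 lies in a cluster on chromosome 10 with its relatives, and shares 94.1% of its coding bases with Rdh16, 93.6% with Rdh9, 92.1% with Rdh16f2, 92.0% with Rdh1 and 86.2% with Rdh7. Its longest identical run was 179 bases, with Rdh1, and reads that fit more than 1 of these genes were not counted, so the counts of this family are uncertain. The first 120 coding bases, in exon 1, are shown for Rdh19 (chr10:127685890-127686009), Rdh16 (chr10:127637067-127637186) and Rdh16f2 (chr10:127702425-127702544), all on the plus strand of GRCm39. Capitals mark in Rdh19 the bases that differ from either relative, and in a relative the bases that differ from Rdh19, 9 for Rdh16 and 20 for Rdh16f2:
Rdh19: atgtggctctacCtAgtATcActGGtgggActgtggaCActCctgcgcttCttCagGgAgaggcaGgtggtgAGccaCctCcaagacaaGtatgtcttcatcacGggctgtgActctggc
Rdh16: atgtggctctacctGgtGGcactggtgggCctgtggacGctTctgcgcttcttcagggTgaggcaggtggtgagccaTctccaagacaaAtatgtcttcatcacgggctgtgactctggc
Rdh16f2: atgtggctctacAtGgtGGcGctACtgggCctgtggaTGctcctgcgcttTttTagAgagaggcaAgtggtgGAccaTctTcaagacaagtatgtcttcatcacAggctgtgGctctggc

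The libraries held 16697246 to 28673176 reads on genes, with a median of 18765582. Levels are given as CPM, the reads of a gene scaled to a common library total, after TMM normalization, which scales libraries to each other. Markers of proximal tubule, loop of Henle, collecting duct and podocytes were present in every library. The summed level of 10 proximal tubule markers was 17774 to 26699 CPM in T-ND and 7303 to 12649 CPM in PT-D, and was lowest in PT-D replicate 1. The listed markers did not move together. Kap, an androgen-regulated gene of the proximal tubule, was 9511 to 20278 CPM in T-ND and 276 to 4369 CPM in PT-D, whereas the transporters Slc34a1 (2708 to 4554 and 3960 to 4443 CPM) and Slc5a2 (291 to 434 and 397 to 473 CPM) overlapped. In whole kidney RNA, fewer cells of a type and less RNA per cell cannot be told apart. Adipoq, a fat cell gene, was above 1 CPM in 6 libraries (T-ND 1 and 4, T-D 1, PT-ND 2 and 3, PT-D 2), where 9 adipocyte markers summed to 205 to 596 CPM, against 49.4 to 108 CPM in the other 8. The names of 5 libraries (T-ND 1 and 2, T-D 1, PT-ND 2, PT-D 1) end in the letter a, for which no meaning was given, and each group holds libraries of both kinds. T-D, PT-ND and PT-D hold a single library with this suffix, so a difference within the suffix rests on a single mouse of these groups.

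**Figure D1:**
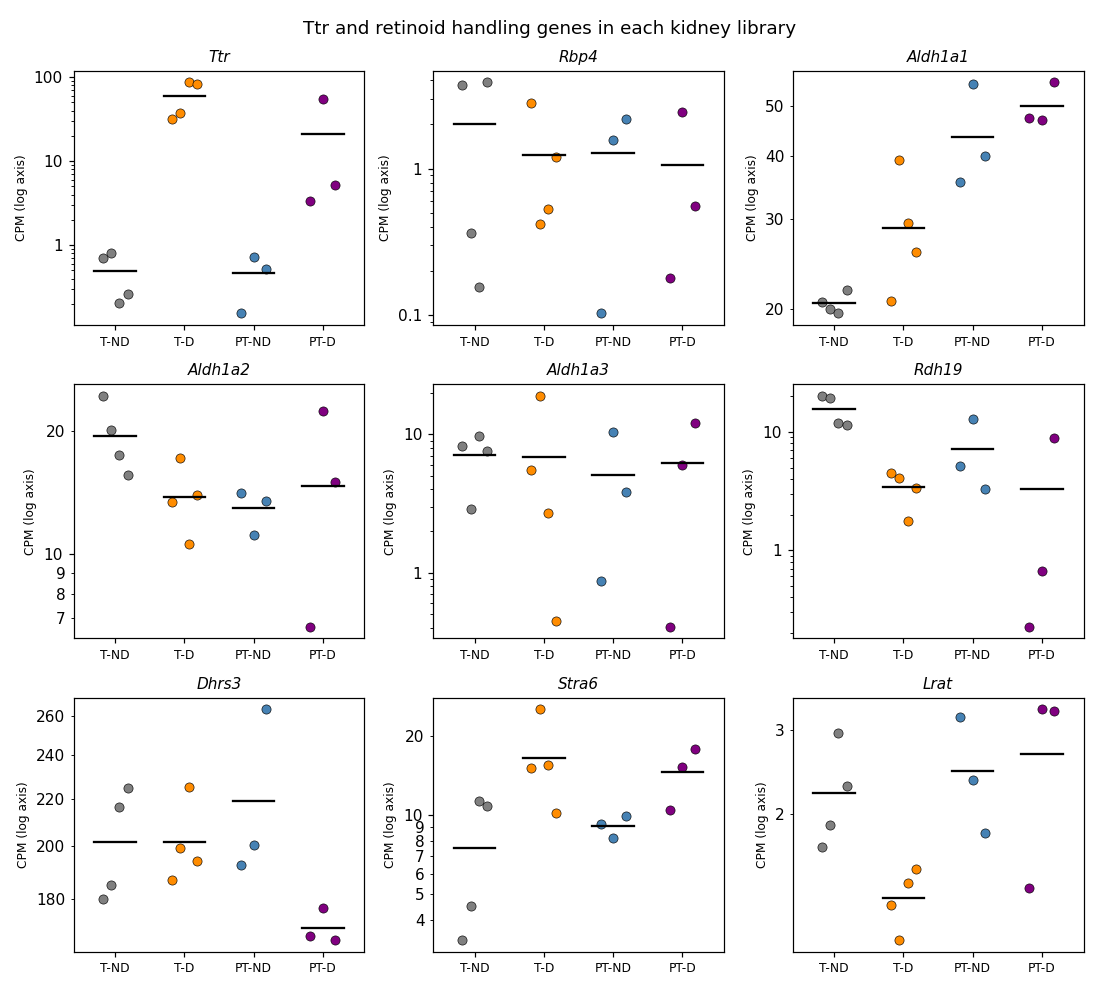
Level of each of the 9 genes in CPM (log axis, a different range per panel) in the 4 groups, with a point for each mouse and a bar at the group mean. Ttr separates the diabetic from the nondiabetic mice, Rdh19 is lower in T-D than in T-ND, and Aldh1a1 is higher in both preterm groups than in T-ND.

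Ttr (chromosome 18, 20797253 to 20807467, plus strand) was close to undetected in kidneys of mice without STZ and was present in every kidney of mice given STZ. Its level was 0.70, 0.81, 0.21 and 0.27 CPM in T-ND replicates 1 to 4, which is 4 to 18 reads, and 0.15, 0.73 and 0.51 CPM in PT-ND, which is 3 to 13 reads. In T-D it was 31.9, 37.2, 86.9 and 83.7 CPM (569 to 2306 reads), and in PT-D 3.34, 54.8 and 5.14 CPM (74 to 1474 reads). No diabetic mouse overlapped with a nondiabetic mouse, and among the PT-D mice replicate 2 lay within the T-D range while the other two lay below it.

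On the log2 scale Ttr was 6.86 ± 0.49 (SE) higher in T-D than in T-ND, a 117-fold difference (adjusted p = 0.000178, edgeR quasi-likelihood test with Benjamini-Hochberg adjustment over all genes). In PT-D it exceeded PT-ND by 5.51 ± 1.09 (adjusted p = 0.0117, edgeR) and T-ND by 5.37 ± 1.00 (adjusted p = 0.0309, edgeR). Without PT-D replicate 2 PT-D exceeded T-ND by 3.06 with an adjusted p of 0.0641 (edgeR), and the call was also lost without T-ND replicate 1, 2 or 4 or PT-D replicate 3, at adjusted p of 0.0570 to 0.0948 (edgeR). Against PT-ND the difference was 3.18 without PT-D replicate 2 and was still called. The call against PT-ND was lost without PT-ND replicate 3 (adjusted p = 0.0586, edgeR), and DESeq2 gave no adjusted p for Ttr in either of these 2 comparisons. Within libraries with and without the suffix, Ttr was higher by 5.22 and 7.60 in T-D than in T-ND, and PT-D exceeded T-ND by 2.00 and 5.67, on the log2 scale. The values with the suffix set a single T-D or PT-D mouse against 2 T-ND mice. With the suffix as a covariate the adjusted p of Ttr in PT-D against T-ND was 0.0516 (edgeR). Without the libraries with adipocyte markers, PT-D replicate 2 among them, PT-D exceeded T-ND by 3.01, which was not called (adjusted p = 0.418, edgeR). T-D exceeded T-ND by 7.01 in the same omission and was still called (adjusted p = 0.000786, edgeR).

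Between the diabetic groups Ttr was 1.51 ± 0.77 lower in PT-D than in T-D on the log2 scale, which did not pass the test (adjusted p = 0.274, edgeR). Without PT-D replicate 2 this difference was −3.83 (adjusted p = 0.00666, edgeR), and it passed also when no filter was put on low counts (−1.51, adjusted p = 0.0488, edgeR). Without the libraries with adipocyte markers, which also leaves out PT-D replicate 2, it was −4.04 (adjusted p = 0.00115, edgeR). Set against the response in term mice, the response of Ttr to STZ in preterm mice was different by −1.38 ± 1.41 (adjusted p = 0.590, edgeR), and by −3.69 without PT-D replicate 2 (adjusted p = 0.0428, edgeR). PT-ND and T-ND differed by −0.11 ± 0.72 (adjusted p = 0.969, edgeR), at levels of a few reads.

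Several defining genes of other sources of transthyretin were close to 0, while others varied between the mice. Of 17 hepatocyte markers, Ahsg, Serpina1c and Cps1 never exceeded 3 reads in a library, and Otx2 of the choroid plexus markers and Ins1, Gcg, Sst, Ppy and Pdx1 of the 9 pancreatic islet markers did not either. Clic6, a choroid plexus marker, was at most 0.135 CPM in T-ND and 0.114 CPM in PT-ND, 0.377 to 0.904 CPM in T-D, and 0.225, 1.49 and 0.316 CPM in PT-D, without overlap between mice with and without STZ. The islet marker Iapp was 0 to 0.903 CPM in T-ND and 1.14 to 6.17 CPM in T-D (19 to 97 reads), also without overlap, and 0 to 0.206 CPM in PT-ND and 0 to 1.00 CPM in PT-D. Neither passed the test in T-D against T-ND or in PT-D against PT-ND. The 9 islet markers summed to 0.259 to 1.49 CPM in T-ND and 1.62 to 7.19 CPM in T-D, and to 0.464 to 0.798 CPM in PT-ND and 0.361 to 1.93 CPM in PT-D. The 8 choroid plexus markers summed to 698 to 839 CPM in T-ND, 709 to 793 in T-D, 798 to 903 in PT-ND and 600 to 695 in PT-D. Nearly all of it was Folr1 (256 to 615 CPM), Enpp2 (141 to 317 CPM) and Prlr (35.4 to 193 CPM), so the sum does not follow scarce markers such as Clic6. The summed hepatocyte markers were 153 to 1027 CPM in T-ND, 351 to 1359 in T-D, 258 to 358 in PT-ND and 798 to 1718 in PT-D. Most of this sum came from Fga, a fibrinogen gene (30.3 to 1170 CPM), and Cyp2e1 (77.8 to 440 CPM), and Alb, the albumin gene, was 8.44 to 10.4 CPM in T-ND and 6.16 to 9.82 CPM in T-D, where Ttr did not overlap. Alb was 12.1, 12.1 and 13.2 CPM in PT-ND. In PT-D Alb was 13.8, 29.4 and 14.3 CPM, highest in replicate 2, the mouse with the highest Ttr of this group. Of 13 hepatocyte markers tested, Fga, Fgb, Fgg and Apoh were called higher in PT-D against PT-ND, beside 4.95% of all genes. In this comparison 7 were higher and 1 lower without overlap, beside 34.4% of all genes in either direction. None of the 13 was called in T-D against T-ND. Serpina3k had 45 reads in PT-D replicate 2 and at most 6 in any other library. The part of the markers that did vary in the difference of Ttr was not tested.

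Rbp4 (chromosome 19, 38105066 to 38113754, minus strand), the blood carrier of retinol, was higher in each library with adipocyte markers than in any library without them, in all 4 groups. Its levels were 3.70, 0.36, 0.16 and 3.88 CPM in T-ND, 2.80, 0.42, 0.53 and 1.21 CPM in T-D, 0.10, 1.57 and 2.17 CPM in PT-ND, and 0.18, 2.42 and 0.55 CPM in PT-D. The 6 libraries with adipocyte markers held 1.57 to 3.88 CPM (28 to 73 reads) and the other 8 held 0.103 to 1.21 CPM (2 to 19 reads), without overlap. The groups overlapped in every comparison, and none passed the test. Rbp4 was 0.93 ± 1.07 lower on the log2 scale in PT-D than in T-ND, but 0.48 higher when the 6 libraries were left out. The other 8 genes overlapped between libraries with and without adipocyte markers.

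**Figure D2:**
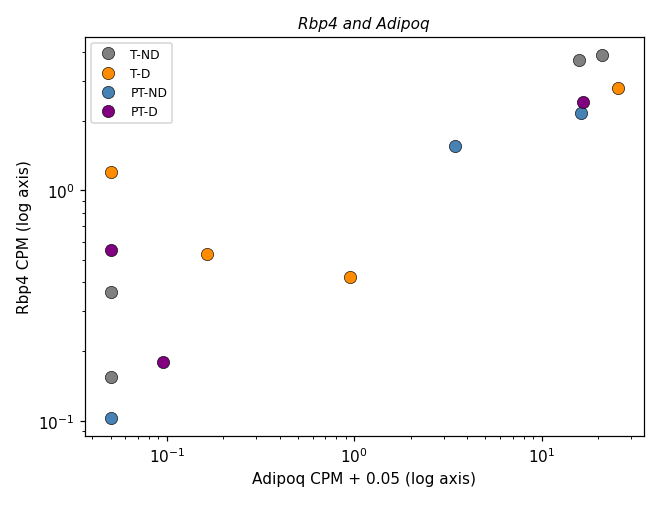
Rbp4 against Adipoq, a fat cell marker (0.05 CPM added so that 0 can be drawn), in CPM on log axes with a point for each of the 14 mice. The 6 mice with the highest Adipoq have Rbp4 between 1.57 and 3.88 CPM, above the other 8.

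Stra6 (chromosome 9, 57970967 to 58063543, plus strand), the cell surface receptor that takes retinol from Rbp4, had higher mean levels in both diabetic groups and did not pass the test in any comparison. T-ND mice had 3.35, 4.51, 11.3 and 10.9 CPM and T-D mice 15.2, 25.3, 15.5 and 10.2 CPM, which overlap in a single T-D mouse. PT-ND mice had 9.23, 8.22 and 9.98 CPM and PT-D mice 10.5, 15.3 and 17.9 CPM, without overlap. The differences by STZ were 1.12 ± 0.39 in term mice (adjusted p = 0.318, edgeR) and 0.67 ± 0.23 in preterm mice (adjusted p = 0.0745, edgeR) on the log2 scale. The difference in term mice was 1.94 between the libraries with the suffix and 0.51 between those without it.

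Lrat (chromosome 3, 82799886 to 82811288, minus strand), the enzyme that esterifies retinol for storage, was read 18 to 89 times per library. It was 1.70, 1.90, 2.95 and 2.28 CPM in T-ND and 1.29, 1.08, 1.43 and 1.53 CPM in T-D, without overlap (−0.74 ± 0.32, adjusted p = 0.403, edgeR). In PT-ND it was 3.20, 2.35 and 1.83 CPM and in PT-D 1.40, 3.31 and 3.28 CPM, which overlap.

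Rdh19 (chromosome 10, 127685797 to 127697045, plus strand), named as a retinol dehydrogenase, fell with STZ in term mice. T-ND mice had 20.2, 19.3, 11.9 and 11.4 CPM and T-D mice 4.53, 4.10, 1.77 and 3.37 CPM, without overlap. The difference was −2.21 ± 0.31 on the log2 scale, or 4.64-fold (adjusted p = 0.0242, edgeR), and −2.10 and −1.96 within libraries with and without the suffix. The call was lost without T-ND replicate 1 or 2 or T-D replicate 2 or 4, at adjusted p of 0.0684 to 0.105 (edgeR). It was also lost with all 14 libraries in 1 fit (adjusted p = 0.220, edgeR) and without the libraries with adipocyte markers (−2.38, adjusted p = 0.117, edgeR).

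In preterm mice Rdh19 was more scattered. PT-ND mice had 5.16, 13.0 and 3.31 CPM and PT-D mice 0.23, 0.67 and 8.93 CPM, so that PT-D replicates 1 and 2 were the lowest of all 14 and replicate 3 lay within the PT-ND range. PT-D was lower than T-ND without overlap (−2.27 ± 0.90, adjusted p = 0.162, edgeR), and without PT-D replicate 3 the difference was −5.09 (adjusted p = 0.0149, edgeR). Against PT-ND the difference was −1.12 ± 0.96 with all libraries (adjusted p = 0.481, edgeR) and −3.95 without PT-D replicate 3 (adjusted p = 0.0120, edgeR). Of the 10 proximal tubule markers, Kap, Lrp2, Cubn, Slc22a7 and Slc7a13 were lowest of the 14 libraries in PT-D replicate 1. Slc34a1, Slc5a2, Slc5a12, Slc22a6 and Slc22a8 were at 3960, 473, 408, 411 and 727 CPM in this library, within or above the T-ND range. The part of the proximal tubule markers in the difference of Rdh19 was not tested.

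Dhrs3 (chromosome 4, 144619245 to 144654779, plus strand), which turns retinaldehyde back into retinol, was the most abundant of the 9 genes and the steadiest. It was 180, 185, 216 and 225 CPM in T-ND, 187, 199, 225 and 194 CPM in T-D, and 193, 200 and 263 CPM in PT-ND. PT-D mice had 167, 177 and 166 CPM, below every other mouse. The differences of PT-D were small, at −0.26 ± 0.13 from T-ND, −0.25 ± 0.16 from T-D and −0.37 ± 0.16 from PT-ND on the log2 scale, and did not pass the test (adjusted p = 0.246, 0.366 and 0.156, edgeR).

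Aldh1a1 (chromosome 19, 20469539 to 20622825, plus strand), which oxidizes retinaldehyde to retinoic acid, was higher in preterm kidneys with or without STZ. T-ND mice lay close together at 20.6, 20.0, 19.6 and 21.8 CPM, and T-D mice ranged over 20.7, 39.3, 29.5 and 25.9 CPM. PT-ND mice had 35.5, 55.3 and 39.9 CPM and PT-D mice 47.4, 47.0 and 55.7 CPM. Every preterm mouse was above every T-ND mouse, and PT-D was also above T-D without overlap.

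On the log2 scale Aldh1a1 of PT-D exceeded that of T-ND by 1.28 ± 0.12, or 2.43-fold (adjusted p = 0.00283, edgeR), a call that was made without each of the 7 libraries in turn. Without the libraries that carry adipocyte markers, which leaves 2 mice in each of these groups, the difference was 1.36 and was not called (adjusted p = 0.277, edgeR). PT-ND exceeded T-ND by 1.09 ± 0.16 (adjusted p = 0.0479, edgeR). This second call sits at the threshold and was made only when T-ND replicate 3 was the library left out, with log2 differences of 0.88 to 1.19 over the 7 omissions. PT-D and T-D differed by 0.79 ± 0.21 (adjusted p = 0.0839, edgeR), PT-D and PT-ND by 0.20 ± 0.18 (adjusted p = 0.508, edgeR), and T-D and T-ND by 0.47 ± 0.18 (adjusted p = 0.362, edgeR). Within libraries with and without the suffix, the difference from T-ND was 1.22 and 1.30 for PT-D and 1.44 and 0.86 for PT-ND.

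Aldh1a2 (chromosome 9, 71122630 to 71203527, plus strand), the retinaldehyde dehydrogenase of the embryonic kidney stroma, had 24.3, 20.1, 17.5 and 15.6 CPM in T-ND and 13.4, 17.2, 10.6 and 13.9 CPM in T-D. It had 14.1, 11.2 and 13.5 CPM in PT-ND, below all T-ND mice (−0.58 ± 0.19, adjusted p = 0.356, edgeR), and 6.67, 22.3 and 15.0 CPM in PT-D. Aldh1a3 (chromosome 7, 66040638 to 66077850, minus strand), the third enzyme of this kind, ranged over 2.89 to 9.79 CPM in T-ND, 0.45 to 19.0 CPM in T-D, 0.88 to 10.5 CPM in PT-ND and 0.41 to 12.1 CPM in PT-D. Its groups overlapped in each comparison. The summed level of 7 urothelial markers was also lowest in PT-ND replicate 1 and PT-D replicate 1, at 5.77 and 4.64 CPM, where Aldh1a3 was 0.88 and 0.41 CPM, but was 39.8 CPM in T-D replicate 4, where Aldh1a3 was 0.45 CPM.

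**Figure D3:**
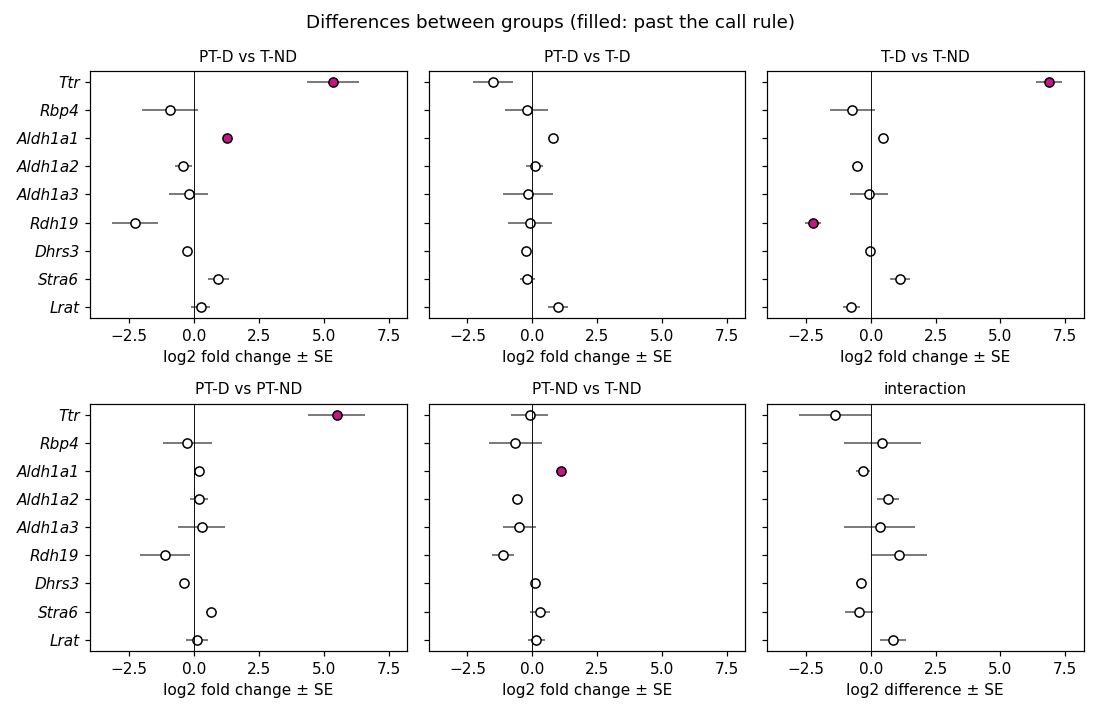
Log2 difference (horizontal axis) of each of the 9 genes in 5 comparisons of groups and in the interaction, which is the STZ effect in preterm minus that in term mice, with SE bars from edgeR. Filled points passed the call rule: Ttr in 3 comparisons with STZ mice against mice without it, Aldh1a1 in the 2 comparisons of preterm mice with T-ND, and Rdh19 in T-D against T-ND.

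A gene was called when its adjusted p was under 0.05 and its log2 difference above 1 or below −1. Of the 9 genes, 2 were called in PT-D against T-ND (Ttr and Aldh1a1, both higher), where 1.45% of all genes tested were called. In T-D against T-ND 2 were called (Ttr higher, Rdh19 lower), with 0.0673% of all genes. In PT-D against PT-ND 1 was called (Ttr, 4.95% of all genes), and in PT-ND against T-ND 1 (Aldh1a1, 0.0809% of all genes). None was called by edgeR or by DESeq2 in PT-D against T-D, where 0.193% of all genes were called by edgeR and 4971 genes, 2 members among them, had an unadjusted p under 0.05, nor in the interaction, with 4.45% and 5472 genes, 0 of them members. The comparisons share control groups and are not independent. The members were chosen with such results in view, so nothing is read from these shares.

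Groups did not overlap for 4 of the 9 genes in PT-D against T-ND (23.2% of all genes), 2 in PT-D against T-D (23%), 3 in T-D against T-ND (6.66%), 3 in PT-D against PT-ND (34.4%) and 2 in PT-ND against T-ND (11.0%). The median log2 difference of the 9 genes was −0.21 in PT-D against T-ND and −0.07 in T-D against T-ND, beside 0.03 and −0.02 over all genes.

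Per kilobase of exon, averaged over the 4 groups, the levels ran from Dhrs3 at 61.0 CPM per kb through Ttr at 10.7, Rdh19 at 3.91, Aldh1a1 at 3.33, Aldh1a2 at 3.29, Stra6 at 1.41, Aldh1a3 at 1.11 and Rbp4 at 0.98 to Lrat at 0.40. Ttr takes its place from the mice with STZ, at 31.4 CPM per kb in T-D and 11.1 in PT-D, and was the lowest of the 9 in T-ND (0.261) and PT-ND (0.244). Only Dhrs3 was apart from its neighbor in this order, at 51.0 to 81.1 CPM per kb over the libraries against at most 45.5 for Ttr. The ranges of all other neighbors overlapped. The exon length of Aldh1a1, 10740 bases over all annotated transcripts, lowers its place.

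Of 45 other genes of the retinoid pathway, 42 passed the filter. In PT-D against T-ND 1 was called higher and 1 lower by edgeR, beside 1.45% of all genes tested. The median log2 difference of the 42 was −0.15 (0.03 over all genes). DESeq2 called 5 of them (Bco1, Crabp1, Dhrs9, Rdh1 and Rdh12), beside 964 of 22268 genes. Crabp1, which binds retinoic acid in the cytoplasm, had 0 reads in all 4 T-ND libraries and 15, 29 and 13 reads in PT-D, at least 19.5-fold higher against a floor of 3 reads over the T-ND group. T-D mice had 2, 21, 7 and 13 reads of it. Rdh12, a retinaldehyde reductase, was 1.71 ± 0.37 lower on the log2 scale (adjusted p = 0.0450, edgeR). With each of the 7 libraries left out in turn, Crabp1 was called 1 time and Rdh12 2 times. None of the 42 was called by edgeR in PT-D against T-D, T-D against T-ND or PT-ND against T-ND. In these comparisons 10, 10 and 11 had an unadjusted p under 0.05, beside 4971 of 22294, 2621 of 22275 and 2379 of 22254 genes. DESeq2 called 1 each (Cyp26b1, Rxrg and Aldh1a7), beside 661, 293 and 164 of all genes.

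In PT-D against PT-ND 7 of the 42 were called, beside 4.95% of all genes tested. Of those called 4 rose, and Rdh16f2 and Bco2 were among those that fell. The median log2 difference of the 42 was −0.17 (0.05 over all genes). Aldh1a7, the neighbor of Aldh1a1, was 4.90, 8.89 and 3.14 CPM in PT-ND and 40.2, 20.4 and 20.0 CPM in PT-D, without overlap, and 2.25 ± 0.38 higher in PT-D on the log2 scale (adjusted p = 0.00709, edgeR). In PT-ND it lay below all T-ND mice (11.9 to 18.5 CPM; −1.40 ± 0.32, adjusted p = 0.200, edgeR), whereas Aldh1a1 lay above them. Cyp26b1, which breaks down retinoic acid, was 0.88, 0.78 and 0.46 CPM in PT-ND and 1.76, 4.17 and 7.95 CPM in PT-D (2.70 ± 0.55, adjusted p = 0.0132, edgeR), a call lost without PT-ND replicate 3 or PT-D replicate 3 (adjusted p = 0.0586 and 0.0514, edgeR). Crabp1 also rose in this comparison.

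The retinoic acid receptor Rarg was 6.55, 9.50 and 10.8 CPM in PT-ND and 16.3, 18.5 and 21.1 CPM in PT-D (1.06 ± 0.22, adjusted p = 0.0135, edgeR), and was not called without PT-ND replicate 1 or 2 or PT-D replicate 3, with log2 differences of 0.86 to 1.22 over the omissions. Rdh16f2, a relative of Rdh19, was 606, 556 and 712 CPM in PT-ND and 223, 313 and 246 CPM in PT-D (−1.26 ± 0.18, adjusted p = 0.00403, edgeR). Bco2, which cleaves carotenoids, was 4.28, 2.18 and 3.88 CPM in PT-ND and 1.40, 1.04 and 1.34 CPM in PT-D, without overlap, and was 1.45 ± 0.38 lower (adjusted p = 0.0328, edgeR). Bco2 and Crabp1 were each called in 2 of the 6 fits with a library left out. The summed proximal tubule markers were 15031 to 24145 CPM in PT-ND and 7303 to 12649 CPM in PT-D, with Kap at 6118 to 16073 and 276 to 4369 CPM, while Slc34a1 (4102 to 4490 and 3960 to 4443 CPM), Slc5a2, Slc22a6 and Slc22a8 overlapped and Slc5a12 was higher in PT-D (252 to 405 and 408 to 456 CPM). Summed markers of podocytes (269 to 464 CPM in PT-ND and 496 to 658 CPM in PT-D), of perivascular stroma (109 to 140 and 184 to 197 CPM) and of leukocytes (32.1 to 74.1 and 87.3 to 223 CPM) were higher in PT-D without overlap. Taken singly, 4 of 5, 5 of 7 and 3 of 8 markers were higher without overlap. Most of the leukocyte sum in PT-D was S100a8 (22.9 to 83.0 CPM) and S100a9 (31.9 to 115 CPM), which each overlapped with PT-ND. Des of the stroma list did not rise (19.6 to 19.7 CPM in PT-ND and 9.33 to 19.6 CPM in PT-D). The part of these markers in the differences of the retinoid genes was not tested. The uptake receptors Lrp2 and Cubn, the receptor Rara and the binding protein Crabp2 were not called by edgeR in any comparison.

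**Figure D4:**
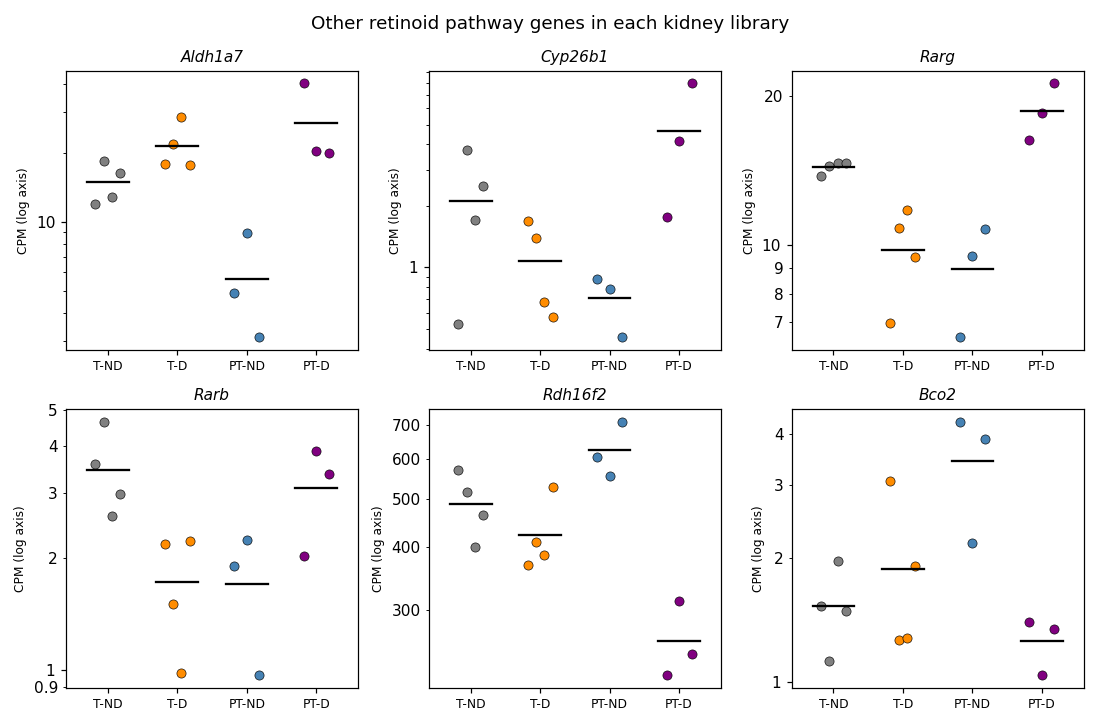
Level in CPM (log axis, a different range per panel) of 6 other retinoid pathway genes in the 4 groups, with a point for each mouse and a bar at the group mean. Aldh1a7, Cyp26b1 and Rarg are higher, and Rdh16f2 and Bco2 lower, in PT-D than in PT-ND without overlap.

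In the interaction, 5 of the 42 genes were called, beside 4.45% of all genes. STZ moved Rarg, Rarb, Cyp26b1 and Aldh1a7 more upward, and Rdh16f2 more downward, in the preterm than in the term kidneys. Over the 14 fits with a library left out, Rarg was called 14 times, Cyp26b1 8, Rdh16f2 7, Aldh1a7 4 and Rarb 3 times. Without the libraries with adipocyte markers PT-ND replicate 1 was the only PT-ND mouse left, so no call is read from that fit. Rarg was 13.8 to 14.7 CPM in T-ND and 7.00 to 11.8 CPM in T-D, so that it was lower with STZ in term mice and higher in preterm mice, each without overlap (difference of effects 1.61 ± 0.29, adjusted p = 0.0145, edgeR). Rarb, a receptor that is itself induced by retinoic acid, was 2.59 to 4.65 CPM in T-ND, 0.98 to 2.23 in T-D, 0.97 to 2.24 in PT-ND and 2.03 to 3.87 in PT-D (1.87 ± 0.54, adjusted p = 0.0497, edgeR). This call was lost with RLE normalization (adjusted p = 0.0517, edgeR), with upper quartile normalization (adjusted p = 0.0562, edgeR) and with the suffix as a covariate (adjusted p = 0.0594, edgeR).

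The known response element of Rarb is a direct repeat of 2 retinoic acid receptor half-sites with 5 bases between (DR5), and is shown as the one motif of this kind next to a gene called here. On the minus strand of GRCm38.p6 (RefSeq promoters) at chr14:16575493-16575549, with the repeat in capitals, it starts 53 bases before the gene start:
Rarb: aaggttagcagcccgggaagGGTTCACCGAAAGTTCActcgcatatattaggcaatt
Promoters of 250 bases before to 50 bases after a gene start were searched on both strands for DR1, DR2 and DR5 repeats. They were found in 0.222%, 0.268% and 0.0974% of 32851 promoters, and in 0 of the 13 promoters listed for members. Among the retinoid genes, DR5 was found for Rarb and Cyp26a1 and DR1 for Bco1.

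Over all 14 libraries, the genes whose log2 level was most like that of Ttr, of 12156 with a mean of at least 50 reads, were Ccng1 (Pearson r = 0.91), Ephx1, Smox, Ces2e and Mgmt (each r = 0.89). Ccng1 was 152 to 167 CPM in T-ND, 337 to 475 in T-D, 147 to 194 in PT-ND and 374 to 506 in PT-D. The least alike were Pacsin3 (r = −0.89), Esm1 (r = −0.84) and Bmal1 (r = −0.83). Most like Aldh1a1 were Myc (r = 0.89), Tfe3 (r = 0.86) and Arsa (r = 0.84). The points fall into the study's groups, so that r includes the differences between groups, and it is given with no test.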

How the data were processed

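Kidney RNA of 14 mice, 1 library each, was prepared from poly-A RNA without strand information. The authors trimmed the reads, aligned them to GRCm39 with STAR (version not given in the sources used here) and deposited the raw counts per gene of reads mapped to 1 place. The unstranded counts were used, and rows that name no gene were left out (reads on more than 1 gene were 6.86% to 8.09% of unique reads, reads outside genes 2.39% to 5.42%). Symbols and positions are from GENCODE release M39, a later release than the one the authors used, and 56236 of 56980 IDs matched without their version. Groups follow the labels.

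Genes with more than 10 counts in total were tested with edgeR 4.0.16 (R 4.3.3), TMM normalization and the two-sided quasi-likelihood test, with the SE as the log2 difference over the root of F. Pairs of groups were fitted separately, with only their libraries, and the interaction on all 14. DESeq2 1.42.0, other normalizations and filters, covariates and omissions were alternatives. Leaving out the 6 libraries with adipocyte markers was chosen after the data were seen, and keeps PT-ND replicate 1 as the only mouse of its group. The procedure was tested on simulated data. The members and all gene lists were chosen with earlier results of these data known. Named genes are the members, the called genes of the pathway lists (at most 6, or 4 for the shorter lists, per comparison), 8 pathway genes fixed by name, and the genes most and least like Ttr and Aldh1a1. Mice are the replicates. The values of 1 gene of the pathway lists are not reported here.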

Additional observations from a re-analysis of the deposited data

Results flagged for a closer look

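In the retinoid pathway, retinoic acid target and thyroid hormone lists, which overlap, 42, 12 and 12 genes were tested. For 7 of these genes the response to STZ differed between preterm and term kidneys by the interaction term in edgeR, beside 4.45% of all genes. Of the cell type marker lists, Apoh, Cela1, Folr1 and Pdgfrb were called in the interaction as well. The differences in log2 effect, preterm minus term, were 1.72 for Aldh1a7 (adjusted p = 0.0395, edgeR), 3.69 for Cyp26b1 (adjusted p = 0.0301, edgeR), 1.87 for Rarb (adjusted p = 0.0497, edgeR), 1.61 for Rarg (adjusted p = 0.0145, edgeR), −1.06 for Rdh16f2 (adjusted p = 0.0303, edgeR), −1.39 for Rarres2 (adjusted p = 0.0305, edgeR) and −2.75 for Crym (adjusted p = 0.00722, edgeR). For Rarg and Crym the mice with STZ lay on opposite sides of their controls in preterm and term mice, without overlap. With each of the 14 libraries left out in turn, Rarg and Crym were called 14 times, Cyp26b1 and Rarres2 8 times, Rdh16f2 7 times, Aldh1a7 4 times and Rarb 3 times. Leaving out the 6 libraries with adipocyte markers keeps PT-ND replicate 1 as the only mouse of its group, so no call is read from that fit. No member had a library that stood apart from its group by Dixon's test in the groups of 4.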

How the results depend on the processing

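The count of called members changed as follows. In PT-D against T-ND it was 2, and 1 with DESeq2, with the suffix as a covariate and with the replicate block, and 0 without the 6 libraries with adipocyte markers. In PT-D against T-D it was 0, and 1 with no filter and 1 without those libraries. In T-D against T-ND it was 2, and 1 with all 14 libraries in 1 fit and 1 without those libraries. In PT-D against PT-ND it was 1, and 0 with DESeq2. In PT-ND against T-ND it was 1, and 0 with filterByExpr, with the replicate block and with the strand columns summed. With each library left out it ranged from 1 to 2, 0 to 1, 1 to 2, 0 to 2 and 0 to 1 in these comparisons and from 0 to 1 in the interaction. The cause was not tested.
Over all genes the calls were 323 in PT-D against T-ND (73 with the replicate block, 964 with DESeq2, 6 without the adipocyte libraries), 43 in PT-D against T-D (22 with filterByExpr, 661 with DESeq2), 15 in T-D against T-ND (6 without those libraries, 293 with DESeq2), 1105 in PT-D against PT-ND (877 with all 14 libraries in 1 fit, 2881 by adjusted p alone), 18 in PT-ND against T-ND (6 with the replicate block, 164 with DESeq2) and 993 in the interaction (563 with the replicate block, 1648 with DESeq2).
Directions that turned, all of differences that did not pass the test, were these, on the log2 scale. With the replicate block they were Rbp4 in PT-D against T-ND (0.31), in PT-ND against T-ND (0.77) and in the interaction (−0.056), and Aldh1a2 in PT-D against T-D (−0.025). Without the adipocyte libraries they were Rbp4 in PT-D against T-ND (0.48), T-D against T-ND (1.41) and PT-D against PT-ND (1.77), Lrat in PT-D against T-ND (−0.064) and PT-ND (−0.46), Aldh1a2 in PT-D against T-D (−0.37) and PT-ND (−0.40), Rdh19 in PT-D against T-D (0.56), Aldh1a3 in T-D against T-ND (0.18), and Dhrs3 in T-D (0.016) and PT-ND (−0.058) against T-ND. Those of these values that involve PT-ND rest on PT-ND replicate 1 alone. Dhrs3 in T-D against T-ND was 0.0069 with DESeq2 and 0.0067 with RLE normalization, and Ttr in PT-ND against T-ND was 0.23 with the suffix as a covariate.
With a library left out, values spanned 0 in PT-D against T-ND for Aldh1a3 (−1.14 to 0.34); in PT-D against T-D for Rbp4 (−1.73 to 0.56), Aldh1a2 (−0.35 to 0.43), Aldh1a3 (−1.08 to 1.09), Rdh19 (−2.90 to 0.46) and Stra6 (−0.36 to 0.088); in T-D against T-ND for Aldh1a3 (−1.31 to 0.33) and Dhrs3 (−0.078 to 0.039); in PT-D against PT-ND for Rbp4 (−1.76 to 0.35), Aldh1a2 (−0.25 to 0.53), Aldh1a3 (−0.64 to 1.38) and Lrat (−0.068 to 0.42); in PT-ND against T-ND for Ttr (−0.58 to 0.29), Dhrs3 (−0.036 to 0.18) and Lrat (−0.11 to 0.33); and in the interaction for Rbp4 (−1.06 to 1.23), Rdh19 (−1.73 to 1.83) and Aldh1a3 (−0.56 to 1.60).
The labels do not say whether a replicate number marks a shared litter or day, so the block is an alternative only. Deviations from the group means correlated at a median of −0.095 (−0.23 to 0.25) between libraries of the same number. Between others the median was 0.0076 (−0.28 to 0.37). Ranges this wide cannot decide whether the numbers pair mice. With the replicate block the interaction calls of Rarb, Aldh1a7, Cyp26b1 and Rdh16f2 were lost (adjusted p of 0.0509 to 0.0631, edgeR). At this depth Ttr of untreated mice, Rbp4 and Crabp1 rest on few reads.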

Other observations

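Transthyretin also carries thyroid hormone, and of 13 genes that bind, transport or convert this hormone 12 passed the filter. Crym, a thyroid hormone binding protein of the cytoplasm, was 21.8, 22.2, 49.6 and 48.0 CPM in T-ND, 57.4, 100, 79.0 and 84.1 CPM in T-D, 53.6, 57.9 and 87.3 CPM in PT-ND and 22.7, 23.9 and 20.3 CPM in PT-D. It was 1.85 ± 0.21 lower on the log2 scale in PT-D than in T-D (adjusted p = 0.00346, edgeR) and 1.57 ± 0.20 lower in PT-D than in PT-ND (adjusted p = 0.00271, edgeR), and both calls were made with each library left out. Dio2, which activates thyroid hormone, was 0.36, 3.53 and 0.71 CPM in PT-D against 0.05, 0.28 and 0.11 CPM in PT-ND (3.34 ± 0.96, adjusted p = 0.0442, edgeR), and was called in 1 of the 6 fits with a library left out. Without PT-D replicate 2 its difference was 1.82 (adjusted p = 0.311, edgeR). The other genes of the list were not called by edgeR in any comparison, and DESeq2 also called Alb in PT-D against T-ND and against T-D, and Crym in T-D against T-ND.
Of 12 retinoic acid targets, all past the filter, Cyp26b1 was called higher in PT-D against PT-ND, where 4.95% of all genes were called. In the interaction 3 were called (Cyp26b1 and Rarb higher, Rarres2 lower), beside 4.45% of all genes. None was called in the 4 comparisons that follow by edgeR. In PT-D against T-ND, PT-D against T-D, T-D against T-ND and PT-ND against T-ND, 2, 3, 4 and 2 of the targets had an unadjusted p under 0.05. Over all genes these numbers were 5412 of 22310, 4971 of 22294, 2621 of 22275 and 2379 of 22254. DESeq2 called Cyp26b1 and Rarres2 in PT-D against T-D, beside 661 of 22265 genes. Rarres2, which encodes chemerin, was 6.34, 10.4, 9.84 and 7.76 CPM in T-ND, 15.2, 18.5, 13.6 and 20.6 CPM in T-D, 9.90, 10.7 and 12.0 CPM in PT-ND and 5.64, 10.5 and 8.34 CPM in PT-D.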
